A study of Mus musculus with 4 samples.

Results

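The genes described here are 10 members of the Yap and Taz pathway, Yap1, Wwtr1 (which encodes Taz), Tead1, Tead4, Cyr61, Ctgf, Ankrd1, Amotl2, Ajuba and Lats2, out of 19353 genes counted in muscle satellite cells (MuSCs) of overloaded and sham-operated plantaris muscle. They were chosen by name as coactivators, TEAD factors and target genes of the pathway. Cyr61 and Ctgf are listed under their newer symbols, Ccn1 and Ccn2. All 4 libraries came from Pax7-CreERT2:Rosa-YFP mice given tamoxifen, in which a Cre recombinase driven by Pax7 switches on yellow fluorescent protein (YFP) and the descendants of a labeled cell stay labeled. In the overloaded group (2 libraries) the distal tendons of the gastrocnemius and soleus had been cut, and in the sham group (2 libraries) only the skin had been cut. MuSCs were sorted by YFP at 4 days after tenotomy into tubes of 100 cells, and the age and sex of the mice, and whether a group's libraries are from separate mice, are not given in the sources used here, so that the p-values measure the spread between these libraries, which may be technical.

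Libraries were made by CEL-Seq2, which reads the 3′ end of each captured transcript and tags each molecule with a unique molecular identifier (UMI), so that each count stands for molecules and does not grow with transcript length. Depth was 269683 and 260488 UMIs in sham and 387955 and 483528 UMIs in overloaded libraries. Levels are given as CPM (counts scaled to the total of the tested genes and by the TMM factors of edgeR), a measure relative to all the RNA of a library, and UMIs per tube are given beside them. 3 UMIs equalled 13.6 CPM in sham replicate 2, the shallowest library, and 6.08 CPM in overloaded replicate 2, the deepest. Of 7228 genes with enough counts to be tested, 25.8% were higher and 26.3% were lower in overloaded MuSCs at an adjusted p under 0.1 (Benjamini-Hochberg adjustment of p-values from the quasi-likelihood test of edgeR). Either way, 52.1% of all tested genes passed, and this share is the background for every count of members below.

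Yap and Taz are transcriptional coactivators that have no DNA-binding domain and act mainly through the TEAD factors. When the kinases Mst and Lats of the Hippo pathway are active, Yap and Taz are phosphorylated and held in the cytoplasm or degraded, and when cells are stretched or spread on a stiff matrix the proteins enter the nucleus and switch on genes such as Cyr61, Ctgf and Ankrd1. Their activity is thus set largely at the level of the protein, which mRNA counts do not measure. In muscle, Yap is known for promoting proliferation of activated satellite cells, and the question for overloaded muscle is whether mechanical load acts on MuSCs through this pathway.

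Of the 10 members, 9 had enough counts to be tested, 2 rose (Tead4 and Ankrd1), 3 fell (Yap1, Wwtr1 and Cyr61) and 4 did not pass the threshold, relative to the other transcripts of the library. Tead4 had enough counts in the overloaded libraries alone. The median log2 fold change of the 9 tested members was 0.013, against 0.051 for all tested genes. Per tube of 100 cells, where 62.0% of all tested genes were higher and 4.58% lower, 7 members were higher and none was lower, and Yap1, Wwtr1 and Cyr61 were thus not lower in UMIs per tube. The part of sequencing depth in the UMIs per tube was not tested. With gene-wise offsets that level out fold changes between low and high abundance, where 20.6% of tested genes were higher and 22.1% lower, 3 of the 9 were higher (Ankrd1, Tead1 and Ctgf) and 1, Yap1, was lower. Of the 9 tested members, 6 had groups that did not overlap in CPM (72.9% of all tested genes), 3 of them higher and 3 lower. In UMIs per tube 8 of the 10 had higher values in both overloaded libraries and none had lower values, against 72.7% and 7.9% of all tested genes. In these bulk libraries, fewer cells expressing a gene and less of its RNA per cell cannot be told apart.

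**Figure D1:**
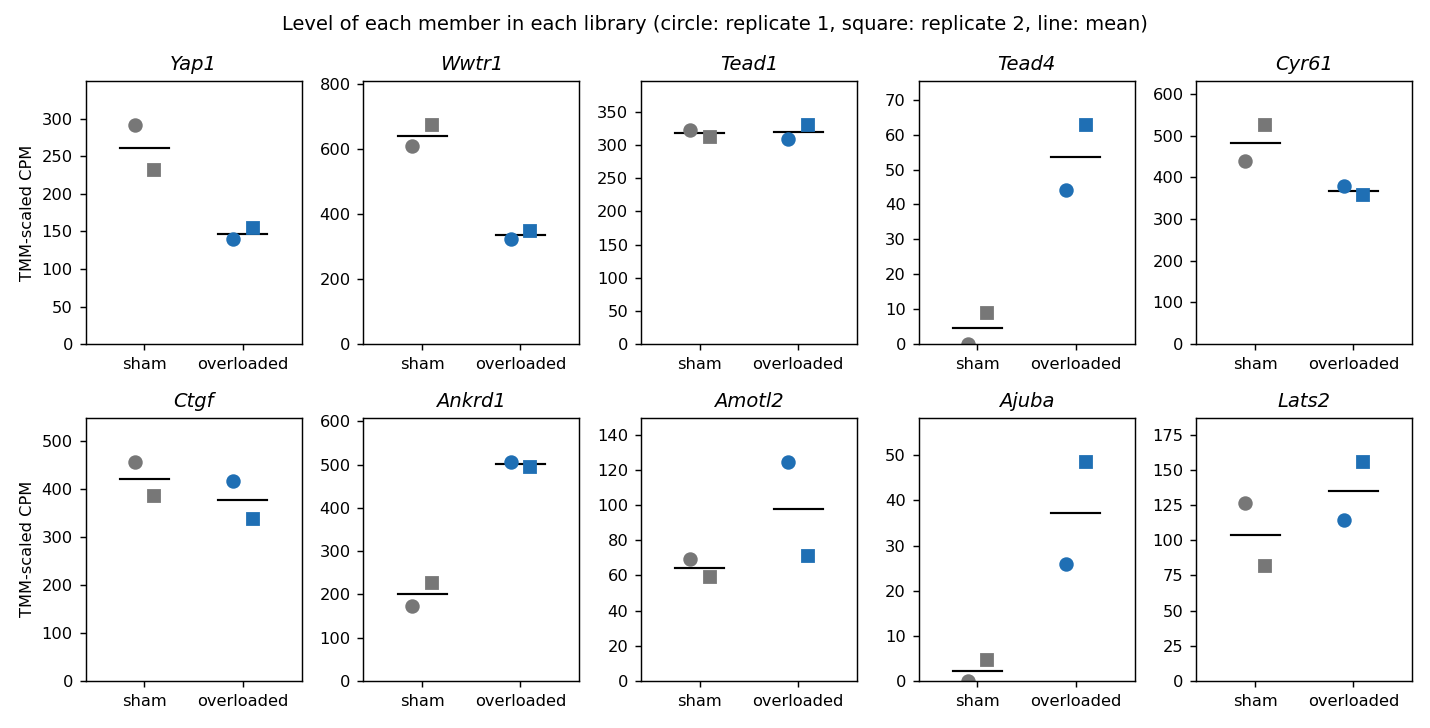
TMM-scaled CPM (y axis, from 0, a separate scale for each gene) of the 10 members in the sham (gray) and overloaded (blue) libraries, with circles for replicate 1, squares for replicate 2 and a line at the mean of the 2 libraries. Yap1 and Wwtr1 lie lower and Ankrd1, Tead4 and Ajuba higher in both overloaded libraries, whereas Tead1 is between 309 and 330 CPM in all 4; per tube, Yap1 and Wwtr1 are not lower.

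The sorted cells carried MuSC markers in every library. Of the 9 MuSC markers listed (Pax7, Myf5, Cdh15, Itga7, Vcam1, Cd34, Sdc4, Calcr and Myod1), all 9 were tested, 2 rose and 5 fell. Their sum was 5615 and 4775 CPM in sham and 4295 and 3777 CPM in overloaded libraries, or 1290 and 1054 UMIs against 1652 and 1865 UMIs per tube. Sdc4 was the most abundant in sham (422 and 284 UMIs) and Myf5 in overloaded libraries (388 and 467 UMIs). Pax7 had 118 and 107 UMIs in the sham tubes against 108 and 137 UMIs in the overloaded tubes. Relative to the other transcripts Pax7 fell (log2 fold change -0.84, edgeR adjusted p = 6.4e-04). Calcr (-2.60), Cd34 (-1.95), Sdc4 (-0.91) and Vcam1 (-0.90) also fell, and Itga7 (0.67) and Cdh15 (0.47) rose. Calcr (37 and 57 against 15 and 15 UMIs) and Cd34 (32 and 38 against 20 and 15 UMIs) were lower per tube as well. RNA of genes that mark other cell types was counted, and its sum was higher in overloaded libraries for several lists. Whether it came from other cells or from the sorted MuSCs was not tested. The 15 leukocyte markers summed to 5 and 9 UMIs in sham and to 90 and 225 UMIs in overloaded libraries. Lyz2, the most abundant over all 4 libraries, was counted 0 and 0 against 17 and 38 times. In the sham libraries 9 of these 15 were at 0, namely Lyz2, Csf1r, Adgre1, Tyrobp, Fcer1g, C1qa, C1qb, Cd74 and Cd52, and the pan-leukocyte gene Ptprc was counted 0, 1, 1 and 4 times in the 4 libraries. Endothelial markers (10 listed) summed to 131 and 95.1 CPM in sham and 346 and 294 CPM in overloaded libraries, with Cldn5 and Egfl7 at 0 in sham. Fabp4 was the most abundant in overloaded libraries (1 and 1 UMIs in sham against 58 and 54 UMIs), and Tek was in sham (10 and 12 UMIs). Of the 4 tested, Fabp4 and Ly6c1 rose, Tek fell (log2 fold change -1.41, edgeR adjusted p = 0.015) and Flt1 did not pass. Mural cell markers (8 listed) summed to 788 and 729 CPM against 1243 and 1405 CPM, most of it Acta2, with Myh11 at 0 in sham and at 0 and 3 UMIs in overloaded libraries. Of the 4 tested, Acta2 and Rgs5 rose and Tagln fell in CPM (log2 fold change -0.61, edgeR adjusted p = 0.045), although per tube it was higher in both overloaded libraries (41 and 36 UMIs against 49 and 49 UMIs). Of the 10 fibroblast markers, 3 rose and 4 fell relative to the other transcripts, their sum was 6172 and 5658 CPM in sham and 5275 and 4666 CPM in overloaded libraries, Col3a1 was the most abundant, and Pdgfra, which defines fibro-adipogenic progenitors, had 0 and 0 UMIs in the sham tubes against 2 and 0 UMIs in the overloaded tubes. The 3 that rose were Ly6a (log2 fold change 4.79), Col1a2 (1.84) and Thy1 (1.85), and Ly6a went from 1 and 0 to 22 and 41 UMIs. The 4 that fell were Gsn (-1.09), Pdpn (-0.92), Col3a1 (-0.53) and Dcn (-0.38). In UMIs the sum of the fibroblast list was 1418 and 1249 in sham and 2029 and 2304 in overloaded tubes. Dcn (85 and 93 against 125 and 141) and Col3a1 (508 and 461 against 618 and 683), which fell in CPM, were higher in both overloaded tubes. Tenocyte markers (4 listed) summed to 8.71 and 27.2 CPM in sham and to 127 and 128 CPM in overloaded libraries. Scx, the one tested and the most abundant in overloaded libraries, rose from 1 and 2 UMIs to 40 and 61 UMIs, and Tnmd and Fmod were at 0 in sham. In overloaded libraries Tnmd had 1 and 0 UMIs and Fmod 7 and 0 UMIs, and Mkx had 1 and 4 UMIs in sham against 1 and 2 UMIs in overloaded libraries.

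Genes of the contractile apparatus moved with the groups as well. All 7 tested genes of the 9 myofibre markers rose in overloaded libraries, the list's sum went from 1702 and 942 CPM to 3778 and 3358 CPM, Acta1 was the most abundant, and Myh1 and Myh2 were at 0 in sham. The 9 genes of a list of dissociation-induced and immediate early genes all fell, from a sum of 12210 and 12450 CPM to 4990 and 4832 CPM, with Hspa1b the most abundant. In UMIs per tube 8 of the 9 were lower in both overloaded libraries, whereas Jun was higher, at 277 and 265 UMIs in sham against 304 and 430 UMIs in overloaded tubes. The part of these RNAs in the values of the members was not tested.

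Yap1, at chr9:7931999-8004596 of GRCm38 (minus strand, 9 exons in the longest coding transcript), encodes Yap. It had 67 and 51 UMIs in the sham tubes against 54 and 76 UMIs in the overloaded tubes, and the UMIs per tube of the groups therefore overlapped. Relative to the other transcripts, Yap1 was at 292 and 231 CPM in sham and at 140 and 154 CPM in overloaded libraries, without overlap. Yap1 fell from 261 ± 42.9 to 147 ± 9.55 CPM (SD, n = 2 each), or -0.82 in log2 (standard error, SE, 0.20, 95% confidence interval, CI, -1.25 to -0.40, edgeR adjusted p = 0.0035), that is 1.77-fold lower. With the offsets for abundance it was also lower (log2 fold change -0.57, edgeR adjusted p = 0.034), whereas per tube its log2 fold change was 0.14 (edgeR adjusted p = 0.69).

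Wwtr1, at chr3:57455649-57575910 (minus strand, 7 exons), encodes Taz, the paralog of Yap. Its counts were 140 and 149 in sham and 124 and 172 in overloaded libraries, which again overlapped per tube. In CPM the sham libraries stood at 609 and 675 and the overloaded libraries at 322 and 348, well apart. Wwtr1 fell from 642 ± 46.4 to 335 ± 18.3 CPM (SD, n = 2 each), or -0.93 in log2 (SE 0.16, 95% CI -1.28 to -0.59, edgeR adjusted p = 2.2e-04). With offsets for abundance the log2 fold change was -0.21 and did not pass (edgeR adjusted p = 0.30), and per tube it was 0.034 (edgeR adjusted p = 0.88).

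The split between the coactivators overlapped between the groups. Yap1 made up 32.4% and 25.5% of the Yap1 and Wwtr1 UMIs in the sham libraries and 30.3% and 30.6% in the overloaded libraries, and over the groups 29.0% (exact Clopper-Pearson 95% interval 24.6 to 33.7) in sham and 30.5% (26.2 to 35.1) in overloaded libraries. These intervals, like all others on counts here, cover counting error only. Summed, the coactivators went from 901 and 906 CPM to 463 and 502 CPM, while their UMIs per tube were 207 and 200 in sham and 178 and 248 in overloaded libraries.

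TEAD factors are the DNA-binding partners of Yap and Taz, and mice have 4 of them. Tead1, at chr7:112679318-112906807 (plus strand, 14 exons), had 74 and 69 UMIs in the sham tubes against 119 and 163 UMIs in the overloaded tubes. Its level was 322 and 313 CPM in sham and 309 and 330 CPM in overloaded libraries, and the groups overlapped. The log2 fold change of 0.013 (SE 0.17, 95% CI -0.35 to 0.37, edgeR adjusted p = 0.96) did not pass, while Tead1 was higher past the threshold per tube (0.98, edgeR adjusted p = 0.0016) and under the offsets (0.54, edgeR adjusted p = 0.014).

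Tead4, at chr6:128224288-128300823 (minus strand, 12 exons), is a TEAD factor known to be induced during myogenic differentiation. It had 0 and 2 UMIs in the sham tubes against 17 and 31 UMIs in the overloaded tubes. Both overloaded libraries, at 44.2 and 62.8 CPM, stood above both sham libraries, at 0 and 9.06 CPM. Tead4 rose (edgeR adjusted p = 8.0e-04), with a ratio of the summed and scaled counts of 12.3 (exact binomial 95% interval 3.23 to 105). With sham counts below the minimum count of 10, Tead4 passed the filter through the overloaded libraries alone. Both sham counts lay in replicate 2, and under the offsets for abundance Tead4 did not pass (log2 fold change 1.08, edgeR adjusted p = 0.40).

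The other TEAD genes moved in opposite directions. Tead2 had 9 and 5 UMIs in the sham tubes against 40 and 60 UMIs in the overloaded tubes. In CPM this was 39.2 and 22.7 against 104 and 122, and Tead2 rose in log2 by 1.86 (SE 0.37, edgeR adjusted p = 7.5e-04). Tead3 had 51 and 43 UMIs in the sham tubes against 27 and 43 UMIs in the overloaded tubes, that is 222 and 195 against 70.2 and 87.1 CPM. It fell by 1.39 on the log2 scale (SE 0.24, edgeR adjusted p = 1.9e-04). Tead2 was higher and Tead3 was lower on each scale tried, with Tead3 not past the threshold per tube (log2 fold change -0.42, edgeR adjusted p = 0.29).

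The TEAD transcripts were made up differently in the groups, while their sum, 583 and 539 CPM in sham and 528 and 601 CPM in overloaded libraries, overlapped. A single scaling factor per library cancels in these shares, whereas gene-wise offsets do not. Under the offsets for abundance the log2 fold changes were 0.54 for Tead1, 1.69 for Tead2, -1.35 for Tead3 and 1.08 for Tead4. With TMM they were 0.013, 1.86, -1.39 and 3.51. Tead1 supplied 55.2% and 58.0% of the TEAD UMIs in the sham libraries and 58.6% and 54.9% in the overloaded libraries. The share of Tead3 was 38.1% and 36.1% in sham and 13.3% and 14.5% in overloaded libraries. The share of Tead2 went the other way, from 6.72% and 4.20% to 19.7% and 20.2%. Tead4 had no UMI in sham replicate 1 (a share of up to 2.72% by its exact interval) and 1.68% in replicate 2, against 8.37% and 10.4% in the overloaded libraries. For Tead2, Tead3 and Tead4 the intervals of the group totals did not overlap, at 3.06 to 9.11% against 16.6 to 23.8% for Tead2, 31.2 to 43.4% against 11.1 to 17.4% for Tead3, and 0.0959 to 2.83% against 7.16 to 12.5% for Tead4. With so few libraries the smallest two-sided p of an exact permutation test is 0.333, and the shares were not tested over libraries.

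**Figure D2:**
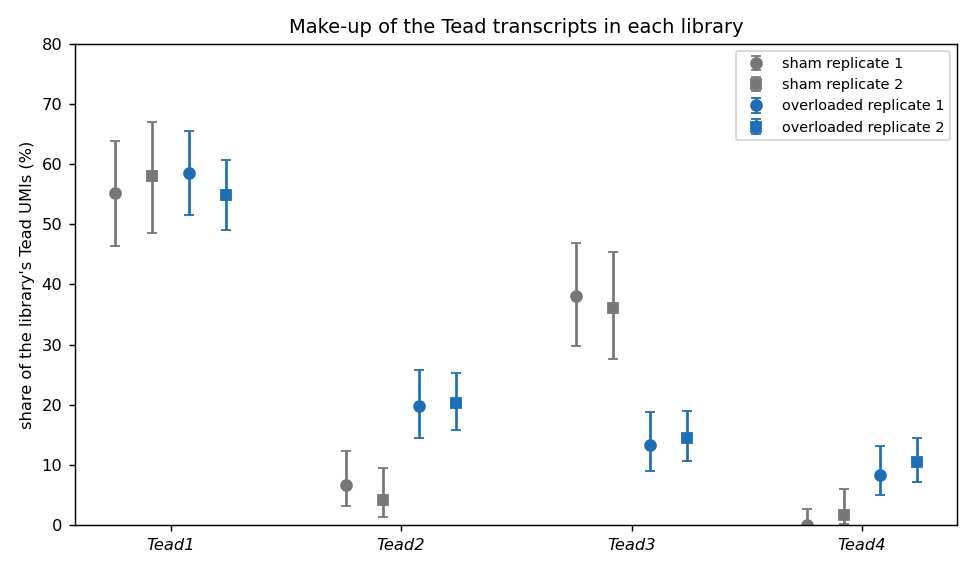
Share of each TEAD gene among the TEAD UMIs of a library (y axis, percent), for the sham (gray) and overloaded (blue) libraries, with exact 95% binomial intervals as bars. Tead1 stays between 54.9% and 58.6% in all 4 libraries, while Tead3 drops from 38.1% and 36.1% to 13.3% and 14.5% and Tead2 and Tead4 take larger shares.

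Among the target genes, Ankrd1 stood apart from Cyr61 and Ctgf. Ankrd1, which encodes a muscle ankyrin repeat protein of the sarcomere and nucleus, lies at chr19:36111961-36120099 (minus strand, 9 exons). It had 40 and 50 UMIs in the sham tubes against 195 and 244 UMIs in the overloaded tubes. The overloaded libraries, at 507 and 494 CPM, were both far above the sham libraries, at 174 and 227 CPM. Ankrd1 rose from 200 ± 37.0 to 501 ± 9.13 CPM (SD, n = 2 each), that is 2.50-fold or 1.32 in log2 (SE 0.19, 95% CI 0.93 to 1.72, edgeR adjusted p = 3.3e-05). The rise was 1.85 in log2 with the offsets and 2.28 per tube, and leaving out any 1 library gave between 1.11 and 1.48.

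Cyr61, at chr3:145646976-145649981 (minus strand, 5 exons), encodes a secreted matricellular protein and is also an immediate early gene. It had 101 and 116 UMIs in the sham tubes against 146 and 176 UMIs in the overloaded tubes, more per tube in both overloaded libraries. Relative to the other transcripts it was at 440 and 525 CPM in sham and at 380 and 356 CPM in overloaded libraries, and it fell by 0.39 on the log2 scale (SE 0.17, 95% CI -0.75 to -0.037, edgeR adjusted p = 0.068). This call was not firm, since without sham replicate 2 it did not pass (edgeR adjusted p = 0.42), nor without overloaded replicate 2 (edgeR adjusted p = 0.16), and per tube Cyr61 was higher (log2 fold change 0.57, edgeR adjusted p = 0.019).

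Ctgf, at chr10:24595442-24598683 (plus strand, 4 exons), encodes another secreted protein of the same family. It had 105 and 85 UMIs in the sham tubes against 160 and 167 UMIs in the overloaded tubes. In CPM the groups overlapped, at 457 and 385 in sham and 416 and 338 in overloaded libraries, and the difference in log2 of -0.17 (SE 0.18, 95% CI -0.54 to 0.21, edgeR adjusted p = 0.46) did not pass. Like Cyr61, it was higher per tube (log2 fold change 0.78, edgeR adjusted p = 0.0030), and it was also higher under the offsets (0.47, edgeR adjusted p = 0.023). Ctgf overlaps Gm15270 on the other strand, which was itself counted at most 2 times in a library.

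The number of Ankrd1 UMIs per Cyr61 UMI was 0.396 and 0.431 in the sham libraries and 1.34 and 1.39 in the overloaded libraries. Per Ctgf UMI, it was 0.381 and 0.588 in sham and 1.22 and 1.46 in overloaded libraries. A single scaling factor per library cancels in these ratios, whereas gene-wise offsets do not. In each ratio the overloaded libraries were higher than both sham libraries.

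The proteins encoded by Amotl2, Ajuba and Lats2 act on the pathway, and their genes are also known as its targets, so that they stand for feedback. Amotl2, at chr9:102716672-102733418 (plus strand, 10 exons), encodes an angiomotin that binds Yap and Taz. It had 16 and 13 UMIs in the sham tubes against 48 and 35 UMIs in the overloaded tubes, that is 69.6 and 58.9 against 125 and 70.9 CPM. The groups did not overlap, but the overloaded libraries lay far apart from each other, and the difference in log2 of 0.57 (SE 0.36, 95% CI -0.18 to 1.32, edgeR adjusted p = 0.21) did not pass. Without overloaded replicate 2 it was 0.99 and passed (edgeR adjusted p = 0.034), and without overloaded replicate 1 it was 0.16. Among all tested genes, 37.5% did not overlap and were higher in overloaded libraries.

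Lats2, which encodes a kinase that phosphorylates Yap and Taz, lies at chr14:57689662-57758388 (minus strand, 8 exons). Its counts were 29 and 18 in sham and 44 and 77 in overloaded libraries. The levels of 126 and 81.5 CPM in sham and 114 and 156 CPM in overloaded libraries overlapped, and the difference in log2 of 0.39 (SE 0.28, 95% CI -0.19 to 0.97, edgeR adjusted p = 0.26) did not pass. Lats2 shares its last exon with Gm49361 on the same strand, so that its count is uncertain to that extent. Its paralog Lats1 had 39 and 40 UMIs in the sham tubes against 40 and 59 UMIs in the overloaded tubes, and fell by 0.64 on the log2 scale (SE 0.23, edgeR adjusted p = 0.030), and its per-tube value was 0.32. The call of Lats1 was lost with DESeq2 (adjusted p = 0.27), with library sizes alone (edgeR adjusted p = 0.21), without a filter (0.12), with counts thinned to the smallest library (0.15) and without sham replicate 2 or overloaded replicate 1 (0.11 and 0.14). Lats2 supplied 42.6% and 31.0% of the UMIs of the Lats kinases in sham and 52.4% and 56.6% in overloaded libraries, or 37.3% (exact interval 28.9 to 46.4) against 55.0% (48.2 to 61.7) over the groups.

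Ajuba, at chr14:54567472-54577558 (minus strand, 8 exons), encodes a LIM protein that binds and restrains the Lats kinases. It had 0 and 1 UMIs in the sham tubes against 10 and 24 UMIs in the overloaded tubes, too few to pass the filter on counts. Both overloaded libraries were higher than both sham libraries, with a ratio of the summed and scaled counts of 17.4 (exact binomial 95% interval 2.93 to 709). Ajuba passed the threshold only when the filter was dropped (edgeR adjusted p = 9.0e-05), with nearly all its counts in the overloaded group. Adjusted p-values of that fit are not comparable with the others. For Ankrd1 it gave 2.4e-11 against 3.3e-05 with the filter, and for Yap1 0.0063 against 0.0035. No support is drawn from the value for Ajuba. Its single sham UMI lay in replicate 2, without which the sham group was at 0. Its paralog Limd1 went the other way, from 370 ± 30.4 to 177 ± 4.26 CPM (SD, n = 2 each), or -1.06 in log2 (SE 0.18, edgeR adjusted p = 1.7e-04), and per tube it did not pass (-0.098, edgeR adjusted p = 0.74). The third paralog, Wtip, was at 97.4 ± 16.1 and 62.0 ± 6.81 CPM (SD, n = 2 each) and did not pass (edgeR adjusted p = 0.11).

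**Figure D3:**
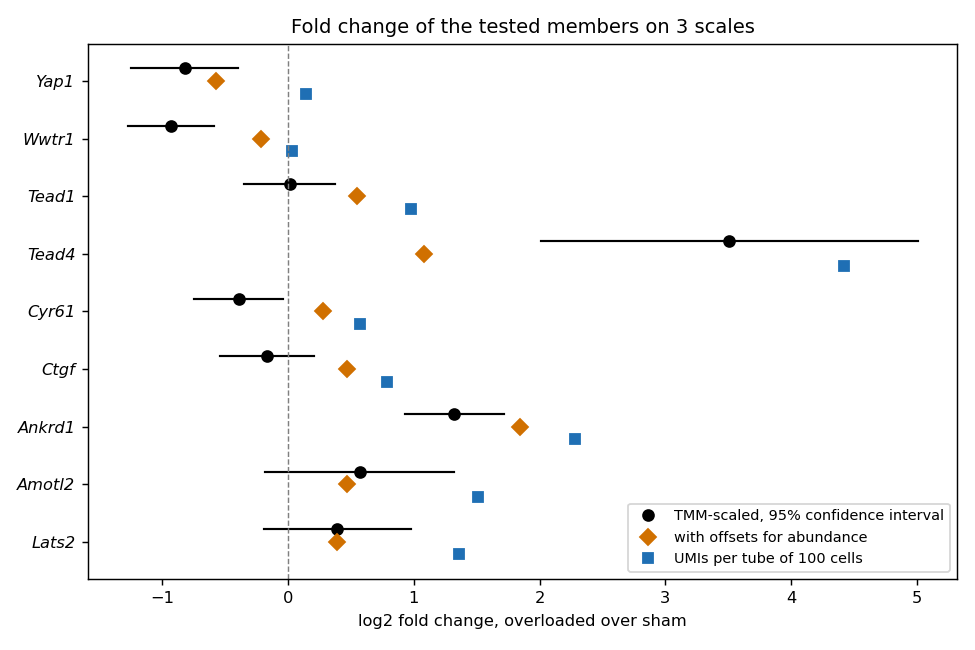
Log2 fold changes, overloaded over sham (x axis), of the 9 tested members with TMM scaling (black circles, 95% confidence intervals as lines), with offsets for abundance (orange diamonds) and for UMIs per tube of 100 cells (blue squares). Ankrd1, Tead4, Amotl2, Lats2 and Tead1 are above 0 on all 3 scales, Tead1 only at 0.013 with TMM. Yap1 and Wwtr1 are at -0.82 and -0.93 with TMM and at 0.14 and 0.034 per tube, and Cyr61 and Ctgf are below 0 only with TMM.

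The promoters of the members are shown because TEAD factors recognize the letters GGAATG, read as CATTCC from the opposite strand, and the members include both genes that rose and genes that fell. RefSeq promoter windows of 300 bases, from 250 bases before to 50 after the start of transcription (GRCm38.p6), were at hand for 7 of the 10 members, in 9 windows. Tead1, Tead4 and Ctgf are named only. The start is that of the RefSeq transcript, and for Ankrd1, Amotl2 and Lats2 it lies inside the wider GENCODE gene span given above, so that their windows overlap that span. The Ajuba window (chr14:54577612-54577911) lies wholly outside the span given above. A check of its direction matched neither strand, so that its direction is the annotated one only. All 7 had GGAATG on either strand in at least 1 window, 8 windows in all, while 14.7% of the 32851 windows of all genes held it. The 7 were chosen as pathway genes, several of them because they are known TEAD targets. The AP-1 motif TGACTCA, held by 5.20% of all windows, and the CArG box, bound by Srf and held by 1.63%, were in no window of these members. Each match is given with 12 bases on either side, 5′ to 3′ in the direction of the gene, with the motif in capitals.
Yap1, 141 bases before the start, chr9:8004720-8004749, minus strand: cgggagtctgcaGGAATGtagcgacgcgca
Wwtr1, 136 bases before, chr3:57576029-57576058, minus strand: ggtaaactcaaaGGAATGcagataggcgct
Ankrd1, 210 bases before, chr19:36120037-36120066, minus strand: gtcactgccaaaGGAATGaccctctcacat
Ankrd1, 123 bases before, chr19:36119950-36119979, minus strand: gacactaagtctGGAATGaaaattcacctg
Cyr61, 103 bases before, chr3:145650071-145650100, minus strand: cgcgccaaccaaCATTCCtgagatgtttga
Amotl2, 65 bases before, chr9:102717727-102717756, plus strand: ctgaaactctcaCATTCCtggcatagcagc
Ajuba, 186 bases before, chr14:54577830-54577859, minus strand: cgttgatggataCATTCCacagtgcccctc
Ajuba, 164 bases before, chr14:54577808-54577837, minus strand: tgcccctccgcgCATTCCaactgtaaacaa
Lats2, 4 bases after, chr14:57746102-57746131, minus strand: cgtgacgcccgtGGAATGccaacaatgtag

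The motif was thus present in Yap1 and Wwtr1, which fell, as well as in Ankrd1, which rose. The 250 bases before the RefSeq start are given for Ankrd1 and Cyr61. With TMM Ankrd1 rose and Cyr61 fell, although the call of Cyr61 was not firm and both were higher per tube.
Ankrd1, chr19:36119845-36120094, minus strand: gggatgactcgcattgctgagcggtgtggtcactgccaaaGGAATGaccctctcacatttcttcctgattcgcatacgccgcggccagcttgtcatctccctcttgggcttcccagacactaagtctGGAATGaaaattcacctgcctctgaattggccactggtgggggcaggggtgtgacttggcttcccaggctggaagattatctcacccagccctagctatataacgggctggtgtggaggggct
Cyr61, chr3:145649986-145650235, minus strand: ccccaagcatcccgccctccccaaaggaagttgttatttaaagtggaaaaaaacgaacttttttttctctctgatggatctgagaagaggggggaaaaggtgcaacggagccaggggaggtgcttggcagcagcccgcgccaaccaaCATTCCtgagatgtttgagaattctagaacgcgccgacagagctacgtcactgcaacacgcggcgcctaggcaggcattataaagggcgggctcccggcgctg
Ankrd1 holds the motif at 2 places and Cyr61 at 1. A match of letters describes the sequence alone, and binding was not measured.

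The remaining genes of the pathway were taken from lists of its parts. Over all tested genes, 25.8% rose and 26.3% fell, which is the background for the list counts below. Per tube it was 62.0% higher and 4.58% lower, under the offsets 20.6% and 22.1%, and with library sizes alone 37.3% and 18.7%. Of 20 Hippo kinases and scaffolds, 16 were tested, 0 rose and 6 fell, with a median log2 fold change of -0.13 (0.051 over all tested genes). Among them, besides Lats1, were Frmd6 (log2 fold change -1.11), which encodes a FERM protein upstream of the kinases, Wwc2 (-0.62), and the kinases Taok1 (-0.39) and Taok2 (-0.52). The Mst kinase genes Stk3 and Stk4 and the Lats cofactors Mob1a and Mob1b did not pass. Wwc2 did not pass with DESeq2 (adjusted p = 0.24), with library sizes alone (edgeR adjusted p = 0.18), under the offsets (0.15) or without sham replicate 2 or overloaded replicate 2 (0.18 and 0.16). In UMIs per tube Taok1, with 92 and 86 in sham and 126 and 138 in overloaded libraries, and Taok2, with 32 and 33 against 39 and 49, were higher in both overloaded libraries. Per tube, 10 of the 16 were higher and 0 lower. Under the offsets, 1 was higher and 3 were lower, and with library sizes alone, where 37.3% of all tested genes were higher and 18.7% lower, 4 were higher and 2 lower. Without sham replicate 2 the list had 2 higher and 2 lower genes, without overloaded replicate 2, without a filter or with thinned counts it had 3 lower, and with DESeq2 2 lower.

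Proteins that bind or restrain Yap, Taz or the kinases were tested for 16 of 19 genes, of which 0 rose and 4 fell, with a median of -0.14. Csnk1d and Csnk1e, kinases that mark Yap for degradation, fell by 1.24 and by 0.76 on the log2 scale (edgeR adjusted p = 1.4e-05 and 0.0031), and Ywhaz, a 14-3-3 protein of the family that holds phosphorylated Yap in the cytoplasm, fell by 1.04 (edgeR adjusted p = 2.3e-04). The other 14-3-3 genes of the list did not pass, with log2 fold changes of -0.23 for Ywhab, -0.12 for Ywhae, 0.27 for Ywhag, -0.027 for Ywhah and 0.070 for Ywhaq. Each of these had more UMIs in both overloaded tubes. Limd1 was the other gene of the list that fell. Per tube Csnk1e was not lower (log2 fold change 0.20). The cofactors Vgll2, Vgll3 and Vgll4, which compete with Yap for TEAD, did not pass, with log2 fold changes of 0.070, -0.17 and -0.19, and Vgll3 (54 and 33 against 67 and 84 UMIs) and Vgll4 (34 and 34 against 46 and 71 UMIs) had more UMIs in both overloaded tubes. Amotl1 was at 187 ± 36.7 and 177 ± 10.3 CPM (SD, n = 2 each), and Amot had 4 and 4 UMIs in the sham tubes against 7 and 12 UMIs in the overloaded tubes. Per tube, 11 of the 16 were higher and 0 lower, and under the offsets 5 were higher and 4 lower, which included Wtip (log2 fold change -0.74, edgeR adjusted p = 0.076) and not Csnk1e (edgeR adjusted p = 0.11). With library sizes alone 4 were higher. Without a filter 1 was higher, Ajuba, which is on this list but not among the 16, and leaving out sham replicate 1, sham replicate 2, overloaded replicate 1 or overloaded replicate 2 gave 1, 1, 2 and 1 higher.

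A list of 24 Yap and Taz target genes, 6 of which are members, had 17 tested genes. Of these 5 rose and 4 fell, beside 25.8% and 26.3% of all tested genes. The median log2 fold change was 0.39, against 0.051 for all tested genes. Without the members, 12 were tested, 4 rose and 3 fell, with a median of 0.34. Birc5, which encodes survivin and is also a gene of mitosis, had 1 and 1 UMIs in the sham tubes against 42 and 60 UMIs in the overloaded tubes, a ratio of 26.2 after scaling (exact binomial 95% interval 7.06 to 219). Myof, which encodes a membrane protein of myoblast fusion, was counted 3 and 1 times against 57 and 66 times and rose in log2 by 3.93 (SE 0.47, edgeR adjusted p = 5.7e-06). Igfbp3, a binding protein of insulin-like growth factors, rose by 1.91 (edgeR adjusted p = 0.0014), and Ccdc80, a secreted matrix protein, by 1.22 (edgeR adjusted p = 0.026), although Ccdc80 did not pass with DESeq2. Crim1, a membrane protein that binds bone morphogenetic proteins, fell by 1.91 (edgeR adjusted p = 1.1e-04), from 34 and 32 to 14 and 20 UMIs, and was lower per tube as well (log2 fold change -0.95). Gadd45a, a stress gene, and Rbms3, an RNA-binding protein, fell by 0.97 and 1.18. Per tube, 14 genes of the list were higher and 1 was lower (62.0% and 4.58% of all tested genes). Under the offsets 7 were higher and 2 lower (20.6% and 22.1%), and with library sizes alone 10 were higher (37.3%).

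Of the Ccn family, to which Cyr61 and Ctgf belong, Wisp1 (listed as Ccn4) was the member that rose. It had 26 and 29 UMIs in the sham tubes against 92 and 133 UMIs in the overloaded tubes, and went from 122 ± 12.9 to 254 ± 21.3 CPM (SD, n = 2 each), 1.06 higher in log2 (SE 0.21, edgeR adjusted p = 7.7e-04). Its share of the Ccn UMIs was 11.2% and 12.4% in sham and 22.9% and 27.7% in overloaded libraries. Nov, Wisp2 and Wisp3 (Ccn3, Ccn5 and Ccn6) were counted at most 4 times in any library.

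Genes of the actomyosin and adhesion machinery, through which tension reaches Yap, and of the Mrtf-Srf arm had 15 of 17 genes tested, with 3 higher and 5 lower. Myl9, a light chain of nonmuscle and smooth muscle myosin, rose in log2 by 2.51 (edgeR adjusted p = 0.0014) from 2 and 2 to 22 and 24 UMIs, and did not pass under the offsets (1.09, edgeR adjusted p = 0.20). The adhesion proteins Tln1 (talin) and Actn1 (alpha-actinin) rose by 0.77 and 0.44, and neither passed with DESeq2. Rock1 and Rock2, the kinases downstream of Rhoa, fell by 0.94 and 0.71, Rhoa by 0.48, and Lmna, which encodes lamin A and C, by 0.79. The myosin kinase gene Mylk fell by 1.41, but did not pass with DESeq2 (adjusted p = 0.12), without sham replicate 2 (edgeR adjusted p = 0.10) or per tube (-0.46, edgeR adjusted p = 0.39). Rock1 and Lmna were not lower per tube (log2 fold changes 0.019 and 0.16), and neither were Rock2, with 154 and 144 UMIs in sham against 172 and 181 in overloaded tubes, and Rhoa, with 46 and 64 against 76 and 77. Per tube 9 were higher and 0 lower. Under the offsets 4 were higher and 2 lower, with DESeq2 1 was higher and 3 lower, and without sham replicate 2 there were 3 lower. Srf, Mrtfa and Mrtfb did not rise or fall past the threshold, Mrtfa being too low to be tested. Piezo1, a stretch-gated channel, had 3 and 2 UMIs in the sham tubes against 2 and 1 UMIs in the overloaded tubes, too few for a comparison.

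**Figure D4:**
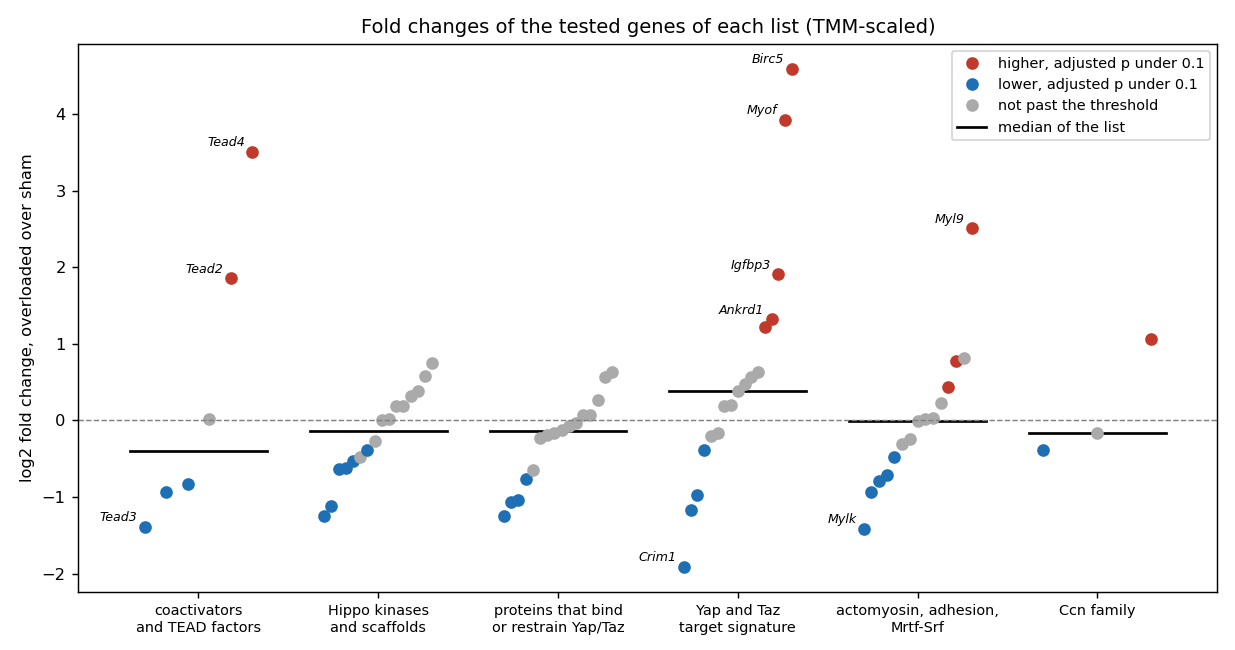
Log2 fold changes, overloaded over sham with TMM scaling (y axis), of the tested genes of each pathway list (x axis), with red for higher, blue for lower and gray for not past an adjusted p of 0.1, and a black line at the median. The target list has its median at 0.39, against 0.051 for all tested genes. It holds genes from Birc5 and Myof at the top to Crim1 at the bottom. No gene of the kinase list or of the list of binding proteins is higher past the threshold on this scale. Per tube, 10 and 11 of their genes are, where 62.0% of all tested genes were higher.

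Jag2, a Notch ligand that Yap1 is known to induce in developing muscle, had 1 and 2 UMIs in the sham tubes against 9 and 18 UMIs in the overloaded tubes. It was too low to be tested, and its ratio after scaling was 4.62 (exact binomial 95% interval 1.42 to 23.8).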

How the data were processed

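UMI-tools handled barcodes and UMIs, HISAT2 the alignment to GRCm38 and featureCounts the assignment to genes, and the authors deposited raw UMI counts for each gene and library. The submitters' processing notes give UMI-tools version 1.0.0, HISAT2 version 2.1.0 and featureCounts version 1.6.4. The strand setting and annotation release are not given in the sources used here. Counts were scaled by TMM and tested with edgeR (version 4.0.16, R version 4.3.3, limma version 3.58.1) by glmQLFit and glmQLFTest over the 7228 genes kept by filterByExpr (minimum count 10, minimum total 15), with Benjamini-Hochberg adjustment over all of them and the threshold of 0.1 of the study's methods. Ratios of genes with 1 to 3 sham counts use scaled group totals. Tead4, Birc5, Myof and Myl9, with few sham counts, passed the filter through the overloaded libraries alone. The test was tried on simulated counts. DESeq2 (version 1.42.0), other scalings, offsets by loess and libraries left out were alternatives. Gene positions are from GENCODE M21, in which all 19353 identifiers were found and 19331 had the same name. Libraries of a group differed by more than sampling noise (chi-square per degree of freedom 1.31 and 1.50, against 6.34 to 7.86 between groups) and were counted as 2 samples each. Named were the members, their paralogs, Jag2, and in each list the 4 genes with the largest change past the threshold without overlap. Taok1, Taok2, Ccdc80, Gadd45a, Rbms3, Rock2, Rhoa, Tln1, Actn1, Stk3, Stk4, Mob1a, Mob1b, the Vgll genes, the 14-3-3 genes other than Ywhaz, Srf, Mrtfa, Mrtfb and Piezo1 were named to complete the counts after their values were seen. Members, lists, rule and alternatives were chosen with earlier results of these data known. Some genes that the rule names are not reported here.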

Additional observations from a re-analysis of the deposited data

How the results depend on the processing

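With 2 libraries per group and at most 244 UMIs of any member, changes of less than about the confidence intervals given could not be told from the spread. The median log2 fold change of all tested genes was 0.051 with TMM, 0.33 with library sizes alone and 1.01 per tube.
Across all genes, 1868 were higher and 1898 lower, against 4481 and 331 per tube and 762 and 1049 with DESeq2, and the higher share of calls was 49.6% with TMM, 66.6% with library sizes alone and 93.1% per tube. With 1 library left out, 1360 to 1668 were higher and 1489 to 1720 lower. Of the members, 4 were higher with library sizes alone (37.3% of all tested genes) and 7 per tube (62.0%), 0 were lower per tube and 1 was lower with the offsets, and with 1 library left out 3 were higher (with Ajuba in 3 of these fits and Amotl2 in the other) and 2 to 3 lower. Over all pathway lists, 11 genes were higher and 22 lower, against 22 higher with library sizes alone, 45 and 1 per tube, and 20 and 13 with the offsets. Left-out libraries gave 11 to 13 higher and 16 to 22 lower.
Per tube, log2 fold changes were 0.14 for Yap1, 0.034 for Wwtr1, 0.98 for Tead1, 0.57 for Cyr61, 0.78 for Ctgf, 1.51 for Amotl2 and 1.36 for Lats2. With library sizes alone they were -0.11 for Cyr61, 0.11 for Ctgf, 0.84 for Amotl2 and 0.67 for Lats2. With the offsets they were -0.21 for Wwtr1, 0.54 for Tead1, 1.08 for Tead4, 0.28 for Cyr61 and 0.47 for Ctgf. Cyr61 did not pass with DESeq2 (-0.39), without a filter (-0.31) or with counts thinned to the smallest library (-0.28), where Tead1 was at -0.039. With 1 library left out the ranges were -1.02 to -0.68 for Yap1, -1.04 to -0.86 for Wwtr1, -0.048 to 0.079 for Tead1, 2.51 to 7.33 for Tead4, -0.55 to -0.30 for Cyr61, -0.32 to 0.023 for Ctgf, 0.16 to 0.99 for Amotl2, 0.078 to 0.71 for Lats2 and, in the 3 of these fits that tested it, 2.96 to 6.83 for Ajuba. The highest values of Tead4 and Ajuba were those without sham replicate 2, where the sham group is at 0 and a fitted value is no bound. Apart from the scale itself, the cause of these changes was not tested.
Among the other genes fitted under each alternative, the direction turned per tube for Lats1 (0.32), Wwc2 (0.34), Csnk1e (0.20), Rock1 (0.019) and Lmna (0.16), and for Wtip (0.32), and with the offsets for Lmna (0.17). Of genes named outside the rule with a log2 fold change below 0, Taok1, Taok2, Rock2, Rhoa, Vgll3, Vgll4, Ywhab, Ywhae, Ywhah and Srf also had more UMIs in both overloaded tubes. Amotl1 was at 0.20 with library sizes alone, 0.88 per tube, 0.13 with the offsets, 0.0028 without a filter, 0.095 without sham replicate 2 and 0.027 without overloaded replicate 2. At an adjusted p of 0.05, 2 members were higher and 2 lower.
The labels do not say whether same-numbered libraries share a mouse, although the study used the other leg as its sham in some of its experiments, and the correlation over genes of their deviations (-0.035) does not settle it with 2 libraries a group. With the replicate number as a block, 1806 genes were higher and 1864 lower, and no call of a member changed.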
